A study of Mus musculus with 12 samples.

Results

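Hair germ (HG) cells, the small cluster of follicle stem cells between the bulge and the dermal papilla, were compared with total keratinocytes sorted from mouse back skin. The comparison used every HG array and every total keratinocyte array of the series, 8 of 12 arrays, chosen by the fraction named in the sample titles. Each HG array was paired with the total keratinocyte array of the same genotype and set number, which gave 4 pairs. The 4 bulge arrays were not used. All mice were females of a mixed C57BL/6 and CD1 background, 72 to 74 days old, at the second resting-to-growth transition of the hair cycle, and the genotypes were TßRII-Het and TßRII-cKO (below Het and cKO). The HG array of Het set 1 was labelled quiescent, that of cKO set 1 quiescent, that of Het set 2 activated and that of cKO set 2 aberrantly quiescent, so that activation was seen on 1 HG array only. Cells were sorted by a Rosa26-YFP reporter, P-cadherin and CD34, and RNA of 2 µg was labelled per array. The labels do not name the driver of the Cre. The labels do not say that HG cells had been removed from the total keratinocytes. They also do not say whether fractions or sets came from separate mice, so a p-value reflects only how far these arrays vary, which may be technical variation.

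The hair germ lies next to the dermal papilla and is the first part of the follicle to divide when a new growth phase begins. Wnt signalling through Lef1 and Sonic hedgehog (Shh) from the early germ go with that step, while BMP signals hold the stem cells at rest and TGF-beta signals from the papilla counter BMP. Total keratinocytes also hold interfollicular epidermis, upper follicle and sebaceous cells, which express differentiation, barrier and lipid genes that the germ is not known for.

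Signals of MAS5, the Affymetrix summary of a probe set, were used on the log2 scale. A difference is HG minus total keratinocytes, averaged over the 4 pairs. Its standard error (SE, n = 4 pairs) is the moderated one of the limma fit, which also draws on the spread of all genes. Values on single arrays are given in the order Het set 1, cKO set 1, Het set 2, cKO set 2. Signals under 19.4 (4.28 on the log2 scale) were set to that floor, so a difference from a value at the floor is a lower bound. A gene was called when its Benjamini-Hochberg adjusted p in the paired limma fit was under 0.05 over the 12122 genes tested. In bulk RNA, fewer cells of a type and less RNA per cell cannot be told apart.

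Of the 12122 genes, 1413 (11.7%) were called, 689 (5.68%) higher and 724 (5.97%) lower in HG, and the median difference of all genes was 0.04. The same sign in all 4 pairs was seen for 1398 of the 1413, while 21% of all genes tested were higher and 16.3% lower in all 4. Of the 1413, 982 (69.5%) did not overlap between the 4 HG and the 4 total keratinocyte arrays, against 15.6% of all genes tested. At least 2-fold differences were seen for 356 higher and 382 lower calls, and at least 4-fold ones for 47 and 36. The count rested on the pairing and on single pairs. It was 544 without the pairs as a block, 369 without the pair of Het set 1, 743 without that of cKO set 1, 1564 without that of Het set 2 and 375 without that of cKO set 2. With no filter on dim genes 0 genes were called and 3621 had an unadjusted p under 0.05, since 688 genes at the floor on all 8 arrays entered the fit, and 510 were called once those were left out. Of the 134 called genes named by the selection rule or added to it, 63 were called without the block. After leaving out any 1 pair 55 were called. All 134 kept their sign when any 1 pair was left out, but this was fixed in advance for those with 1 sign in all 4 pairs. 

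**Figure D1:**
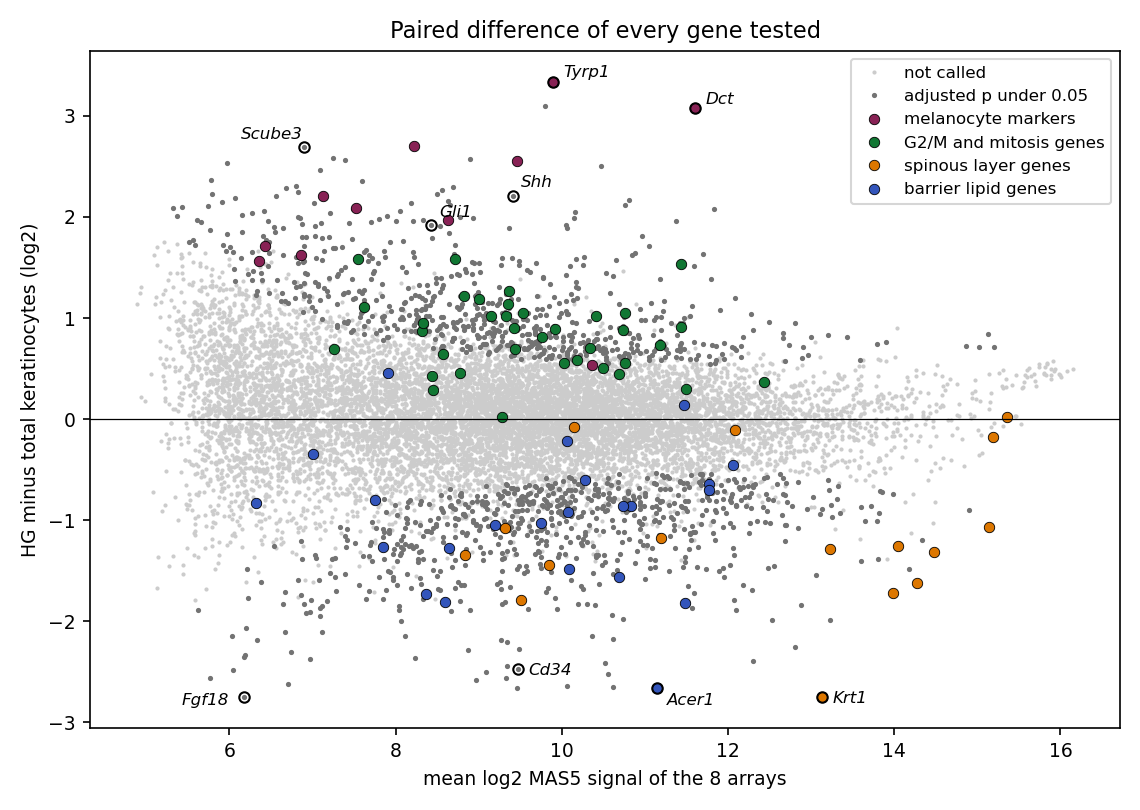
Each point is a gene, with the mean log2 MAS5 signal of the 8 arrays on the x axis and the HG minus total keratinocyte difference (log2) on the y axis; dark grey points are the 1413 genes called and coloured points are members of 4 gene lists. Melanocyte and mitosis genes lie above 0, most spinous layer and barrier lipid genes lie below it, and most genes lie near the median of 0.04.

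Arrays varied more among HG than among total keratinocytes. The correlation over genes was 0.877 to 0.965 between HG arrays, 0.948 to 0.975 between total keratinocyte arrays and 0.907 to 0.952 within a pair. 2 total keratinocyte arrays stood apart in gene groups foreign to the comparison. Milk protein and other mammary markers averaged 9.90 on the array of cKO set 1 and 4.45 to 5.67 on the other 7 arrays. Immediate early and dissociation stress genes averaged 12.98 on that of cKO set 2 and 11.03 to 11.55 on the other 3 total keratinocyte arrays. The counts without these pairs are the 743 and 375 given above. Tgfbr2, the targeted gene, was measured at 11.48, 12.02, 10.35 and 11.31 in HG and at 11.96, 12.09, 11.68 and 11.78 in total keratinocytes. Each cKO array was higher than the Het array of the same set and fraction, and since the position of the probes relative to the deletion is not known here, the gene does not check the genotype.

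The bulge marker was low in HG and the HG sort marker was not called. Cd34, the bulge surface marker used to sort HG away from the bulge, was measured at 8.69, 8.40, 7.65 and 8.21 in HG and at 11.30, 10.83, 10.67 and 10.03 in total keratinocytes. All HG arrays were below all total keratinocyte arrays, with a difference of -2.47 (SE 0.21), or 5.55-fold lower. HG was sorted by CD34, so this fall was set by the sort and its call is not evidence about HG. Cdh3, which encodes P-cadherin, the marker of the HG sort, was measured at 9.42, 9.74, 10.61 and 9.22 in HG and at 9.33, 9.33, 10.07 and 9.54 in total keratinocytes. The groups overlapped and the difference of 0.18 (SE 0.19, limma adjusted p = 0.565) was not called, with HG higher in 3 of 4 pairs. Another Cdh3 probe set gave 0.84, with pair differences of -0.08, 0.86, 1.32 and 1.24. Of the 3 hair germ markers Cdh3, Shh and Lef1, the latter pair was called higher.

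Lef1, the Wnt effector of the germ, was measured at 9.89, 9.58, 12.14 and 9.80 in HG and at 8.81, 8.49, 10.46 and 7.82 in total keratinocytes. HG was higher in each pair, by 1.46 (SE 0.20, limma adjusted p = 0.00474), but the total keratinocyte array of Het set 2 lay above 3 HG arrays. The call needed the pairs, with an adjusted p of 0.211 without the block, and another probe set gave 0.04, so that the mean of both was 0.75 and not called. Among 18 tested genes of the hair germ and early anagen list, 6 rose and 4 fell, where 5.68% and 5.97% of all genes did. The median of the list was 0.64 against 0.04 for all genes. Without the block 2 rose and 0 fell, and the falls numbered 1, 1, 3 and 0 and the rises 3, 6, 5 and 4 when Het set 1, cKO set 1, Het set 2 or cKO set 2 was left out.

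Hoxc13, a homeobox factor of the hair matrix, had the second largest rise of that list. It was measured at 10.90, 10.84, 11.75 and 11.09 in HG and at 9.17, 8.97, 10.09 and 8.38 in total keratinocytes. The arrays did not overlap, and the difference was 1.99 (SE 0.20, limma adjusted p = 0.00202), or 3.98-fold. Lgr5, the R-spondin receptor found on lower follicle stem cells, rose by 1.42 (SE 0.27, adjusted p = 0.0138) without overlap. Trps1, a zinc finger factor of hair follicles, rose by 1.26, and Msx2, a homeobox factor downstream of BMP, by 0.98. The members that fell were Ovol1 (-1.34), Foxn1 (-1.29), Gata3 (-1.08) and Sostdc1 (-0.75). Ovol1 and Gata3 also act in epidermal and inner root sheath differentiation.

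The Hedgehog ligand and its targets rose. Shh, the ligand, was measured at 9.84, 9.75, 12.49 and 9.97 in HG and at 6.45, 7.95, 10.85 and 7.96 in total keratinocytes. Each pair was higher in HG, by 3.39, 1.80, 1.65 and 2.01, while the total keratinocyte array of Het set 2 exceeded 3 HG arrays. The mean difference was 2.21 (SE 0.28, limma adjusted p = 0.00352), or 4.64-fold, and the adjusted p was 0.169 without the block. Scube3, a secreted protein of the family that releases Hedgehog ligands from cells, was measured at 8.54, 8.01, 8.99 and 7.43 in HG and at 6.37, 5.42, 6.14 and 4.28 in total keratinocytes, the last at the floor. Its difference was at least 2.69 (SE 0.30, adjusted p = 0.00248) without overlap. These were the 2 calls among 5 tested genes of ligand and processing, where 5.68% of all genes were called higher. Without the block only Scube3 was called. Scube3 was known to be high in HG from earlier results on these arrays, so its rise is not independent evidence.

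Gli1, a transcription factor that is itself a Hedgehog target, was measured at 9.27, 9.15, 9.94 and 9.18 in HG and at 7.61, 7.22, 7.96 and 7.07 in total keratinocytes. No array overlapped, and the difference of 1.92 (SE 0.19, limma adjusted p = 0.00202) stayed between 1.79 and 2.00 over the alternatives run, with the call lost only without a filter. Ptch1, the Hedgehog receptor and another target, was measured at 11.96, 11.95, 13.45 and 12.63 in HG and at 11.16, 10.97, 11.83 and 10.46 in total keratinocytes, a difference of 1.39 (SE 0.23, adjusted p = 0.00803). Mycn, a growth regulator downstream of Hedgehog in other tissues, rose by 1.48, although its other probe sets gave 0.02 and -0.40. Of 4 tested targets 3 rose, where 5.68% of all genes were called higher. The median of the targets was 1.43, and the count stayed at 3 without any 1 pair, but was 1 without the block. Of 10 receptors and transducers, Gli2 (1.18) and Kif7 (0.81) rose and Gas1, a coreceptor also listed with the bulge genes, fell by 0.74. None of these 3 was called when the pair of Het set 1, cKO set 1 or cKO set 2 was left out. Without Het set 2, Kif7 and Gas1 were not called either.

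**Figure D2:**
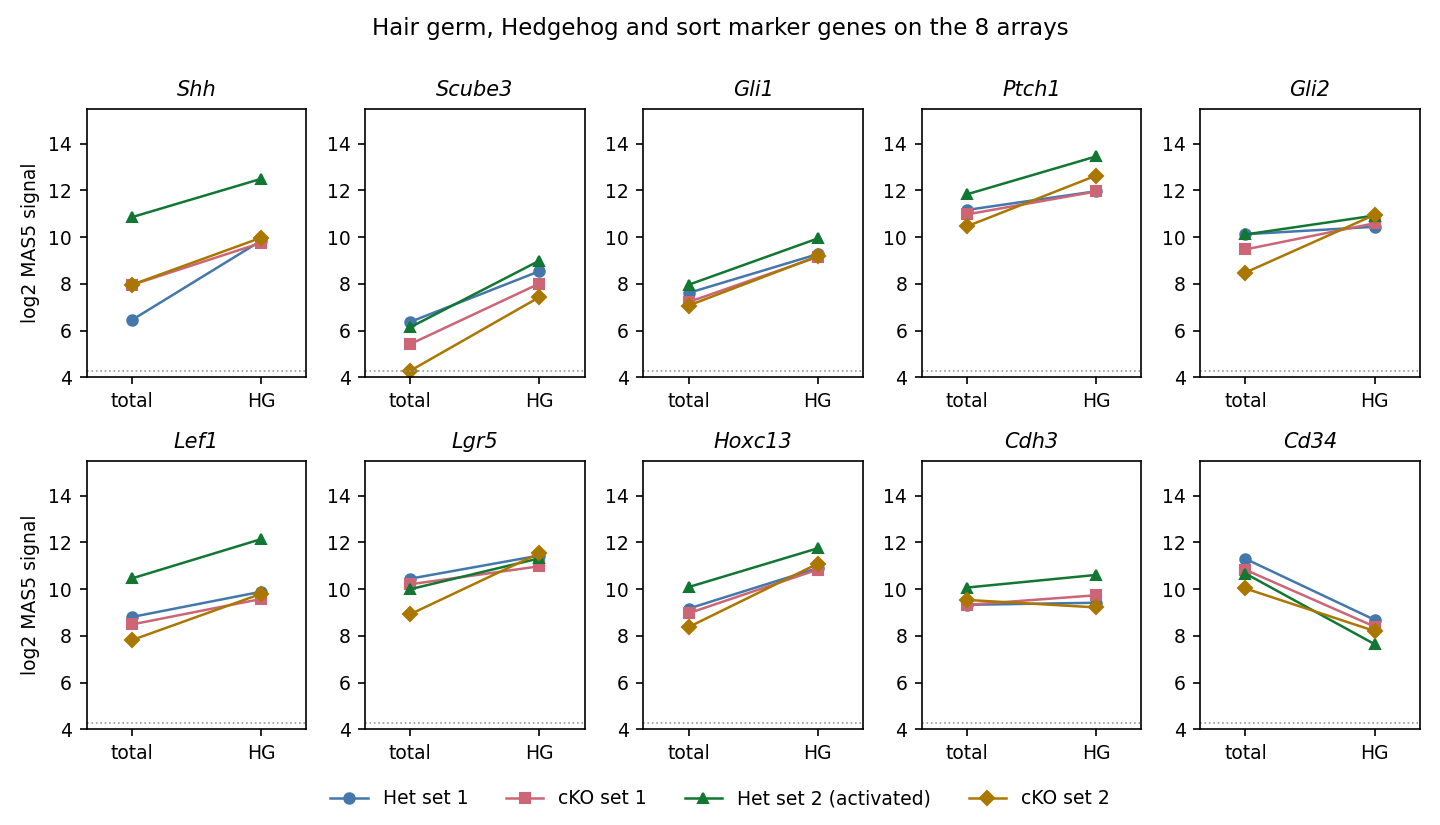
Each panel shows the log2 MAS5 signal of 1 gene in total keratinocytes (left) and HG (right), with 1 line per pair of arrays and a dotted line at the floor of 4.28. Lines rise in all 4 pairs for Shh, Scube3, Gli1, Ptch1, Gli2, Lef1, Lgr5 and Hoxc13, fall in all 4 for Cd34, and are nearly flat for Cdh3 (0.18).

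Other Wnt genes were called in both directions, and 11.7% of all genes were called. Of 10 tested ligands 1 fell (Wnt7b, -1.39) and 0 rose, of 16 receptors and R-spondin genes Lgr5 rose and Rspo3 fell (-1.20), and of 12 targets and feedback genes Nkd1 rose (1.18) while Nkd2 (-1.17) and Myc (-1.01) fell. Other probe sets of Nkd2 gave -1.60, -0.95 and 0.15, and another of Wnt7b gave -0.49. Among 9 antagonists, Sfrp2 (1.75) and Wif1 (1.52) rose and Sostdc1 fell, and Wif1 was at 11.27, 10.32, 11.61 and 10.88 in HG against 10.43, 9.07, 10.22 and 8.29, with overlap. Of 3 tested Tcf/Lef factors Lef1 was called. Nkd1, Nkd2 and Sostdc1 were not called when any 1 pair was left out.

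BMP and TGF-beta genes were called in both directions, and 11.7% of all genes were called. Of 10 tested BMP ligands and receptors 0 were called by limma, with 2 at an unadjusted p under 0.05. Of 8 BMP antagonists Fstl1 (1.15) rose and Grem1 (-1.26) and Sostdc1 (-0.75) fell. Of 10 BMP targets Smad6 (1.14) and Msx2 (0.98) rose and Gata3 (-1.08) fell, while Id1 (-0.12), Id2 (-0.18) and Id3 (0.57), the usual readouts of BMP signalling, were not called, with limma adjusted p of 0.804, 0.53 and 0.0832. Of the BMP targets 0 were called without the block, and Smad6 was not called when any 1 pair was left out. Of 18 TGF-beta ligands, receptors and Smads, Skil (1.39, SE 0.20) and Tgfb3 (1.09, SE 0.24) rose. Of 12 TGF-beta targets Skil and Thbs1 (0.73) rose and Cdkn1a (-1.69), Ccn1 (-1.39) and Cdkn2b (-1.08) fell. The other probe sets of Ccn1 gave -1.42, 0.13 and 0.22. Thbs1 was not called when any 1 pair was left out, and another Thbs1 probe set gave 0.22. Tmeff1, a TGF-beta target of hair follicle stem cells, was 0.38 (SE 0.33, adjusted p = 0.475) and overlapped.

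The FGF list held 4 rises and 1 fall among 15 genes, where 5.68% of all genes were called higher and 5.97% lower. Spry4 (1.89), Etv4 (1.60) and Dusp6 (1.51), which FGF and ERK signals induce, and the receptor Fgfr1 (1.31) rose. Another Spry4 probe set gave 0.53, with -0.45 in cKO set 1, while another of Etv4 gave 1.31. Dusp6 was at 12.32, 12.19, 12.10 and 12.80 in HG and at 11.13, 10.81, 10.95 and 10.46 in total keratinocytes, without overlap. Fgf18, a ligand of resting bulge cells, was at 5.50, 4.28, 4.28 and 5.13 in HG, of which 2 were at the floor, and at 8.55, 7.67, 7.49 and 6.48 in total keratinocytes, a difference of at least 2.75 in size (limma adjusted p = 0.00775). The median of the list was 0.41, and leaving out Het set 1 left 2 rises (Etv4 and Dusp6) and 0 falls.

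Mitosis genes rose together. Of 36 tested G2/M and mitosis genes, 21 were called higher and 0 lower, against 5.68% of all genes called higher. All 36 had a higher mean in HG, where 53.3% of all genes did, and 27 were higher in all 4 pairs, where 21.0% of all genes were. Their median was 0.88. Leaving out Het set 1, cKO set 1, Het set 2 or cKO set 2 gave 11, 16, 17 or 10 calls, and 2 were called without the block. The mean over the list was 9.76, 9.27, 11.40 and 9.76 in HG and 8.98, 8.71, 10.22 and 8.96 in total keratinocytes, so the total keratinocyte array of Het set 2 lay above the other 3 HG arrays.

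Mki67, the proliferation marker, was measured at 12.18, 11.73, 13.06 and 11.82 in HG and at 10.56, 10.39, 11.54 and 10.17 in total keratinocytes. The groups did not overlap and the difference was 1.53 (SE 0.15, limma adjusted p = 0.00202), 2.89-fold. The kinesin Kif20b rose by 1.58 (SE 0.19) and the kinetochore motor Cenpe by 1.58 (SE 0.25), both without overlap. Another Cenpe probe set gave 0.63, with -0.12 in Het set 1. Cenpf, a kinetochore protein, rose by 1.27, Top2a, the mitotic topoisomerase, by 0.91 and the mitotic kinase gene Cdk1 by 0.88, each with overlapping arrays. Other Cenpf probe sets gave 0.60 and 1.00. Ndc80 (1.11) was not called, and Ttk (0.02), Plk1 (0.29) and Cdc20 (0.30) were nearest to 0.

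**Figure D3:**
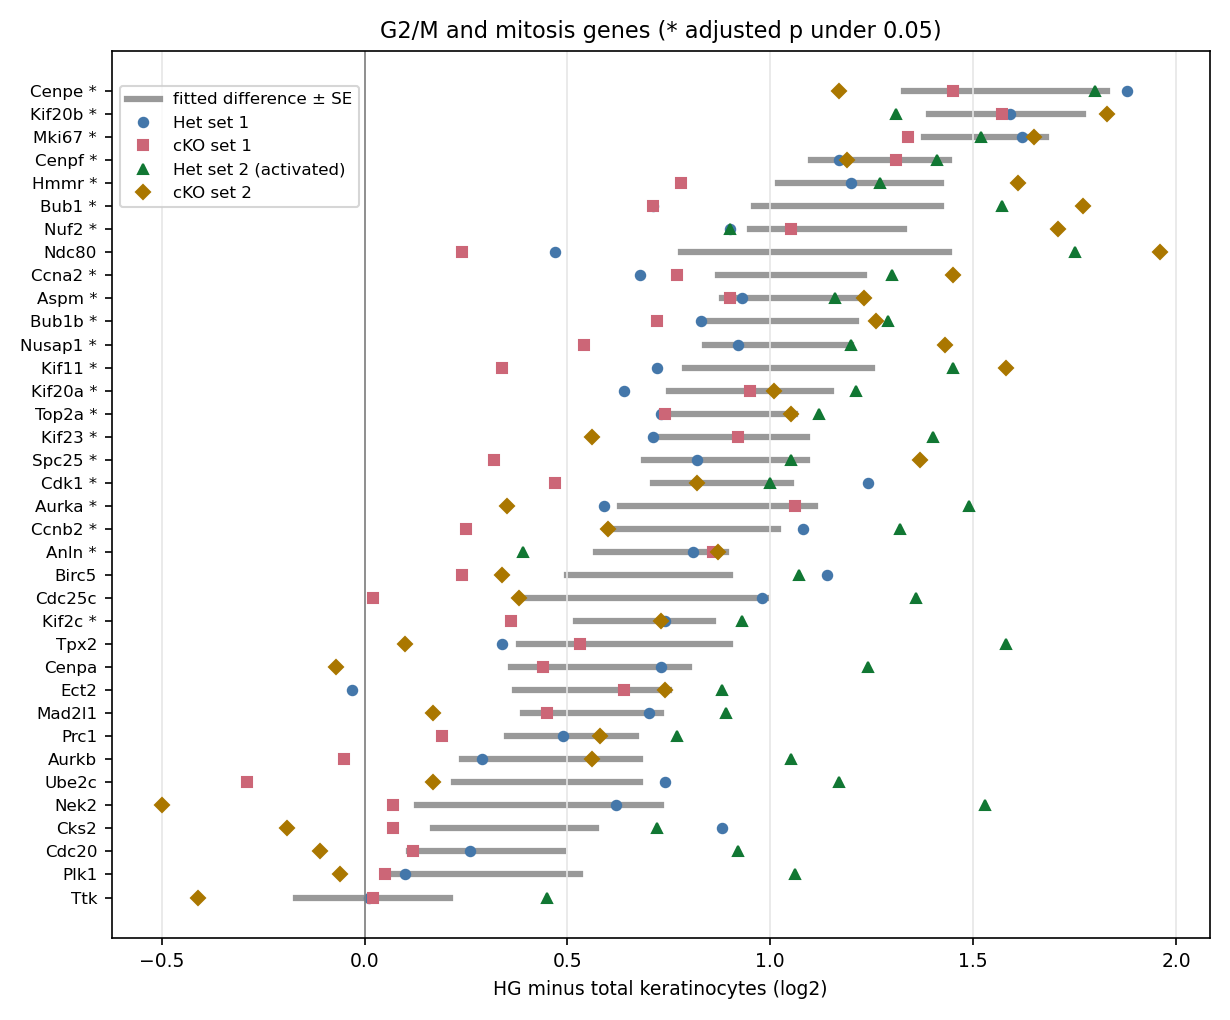
For each tested G2/M and mitosis gene the HG minus total keratinocyte difference (log2, x axis) is shown for the 4 pairs as coloured symbols, with a grey bar for the fitted difference ± SE; an asterisk marks the 21 genes called. All 36 fitted differences lie above 0, from 0.02 for Ttk to 1.58 for Cenpe and Kif20b.

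Of 30 DNA replication genes tested, 5 rose and 0 fell, where 5.68% of all genes were called higher and 5.97% lower. The median was 0.43, and 22 were higher in all 4 pairs, as were 21% of all genes. The 5 were Pole (0.96), Rrm2 (0.73), Ccne2 (0.68), Fen1 (0.61) and Mcm7 (0.60), which act in DNA synthesis, nucleotide supply, S phase entry, flap cleavage and the replicative helicase. The count was 1 when Het set 1 or Het set 2 was left out and 0 when cKO set 1 or cKO set 2 was, and 0 without the block. Of 13 CDK inhibitors and growth arrest genes, Cdkn1a, Cdkn2b and Gas1 fell, and Cdkn1a, the p21 inhibitor, was at 12, 11.39, 11.52 and 10.85 in HG and at 13.16, 12.68, 13.18 and 13.53 in total keratinocytes.

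The promoters of the 4 mitosis genes with the largest rises are shown because the genes moved together and many such promoters carry a cell cycle element. Capitals mark matches to CHR, the cell cycle genes homology region (TTTGAA), and to the CCAAT box (CCAAT), on either strand, and the windows run from 250 bases before to 50 after the RefSeq start, from the GRCm38.p6 table.
Cenpe, chr3:135212313-135212612, plus strand: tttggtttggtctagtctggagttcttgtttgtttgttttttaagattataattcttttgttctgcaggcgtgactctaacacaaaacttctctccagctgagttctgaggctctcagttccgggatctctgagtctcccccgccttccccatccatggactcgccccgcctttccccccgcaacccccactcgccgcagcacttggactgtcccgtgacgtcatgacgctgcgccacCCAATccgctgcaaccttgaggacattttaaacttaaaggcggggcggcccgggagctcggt
Kif20b, chr19:34922108-34922407, plus strand: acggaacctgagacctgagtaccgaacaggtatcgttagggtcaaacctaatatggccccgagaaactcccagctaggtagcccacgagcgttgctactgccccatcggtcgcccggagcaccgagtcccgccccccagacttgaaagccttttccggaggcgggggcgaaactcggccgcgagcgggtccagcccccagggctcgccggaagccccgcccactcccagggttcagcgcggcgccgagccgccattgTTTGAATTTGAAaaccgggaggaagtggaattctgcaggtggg
Mki67, chr7:135716330-135716629, minus strand: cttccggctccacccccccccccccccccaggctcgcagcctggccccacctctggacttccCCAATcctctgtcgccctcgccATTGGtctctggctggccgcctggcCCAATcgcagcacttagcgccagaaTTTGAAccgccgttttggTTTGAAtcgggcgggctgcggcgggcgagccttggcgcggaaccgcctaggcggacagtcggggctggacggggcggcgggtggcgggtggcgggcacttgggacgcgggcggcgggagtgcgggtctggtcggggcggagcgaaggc
Cenpf, chr1:189688037-189688336, minus strand: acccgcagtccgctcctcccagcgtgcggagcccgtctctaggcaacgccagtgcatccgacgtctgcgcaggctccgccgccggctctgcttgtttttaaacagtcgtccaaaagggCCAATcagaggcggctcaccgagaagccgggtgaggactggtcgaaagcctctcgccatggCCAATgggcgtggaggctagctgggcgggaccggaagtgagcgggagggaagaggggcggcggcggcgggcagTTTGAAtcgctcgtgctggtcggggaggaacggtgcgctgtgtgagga
CHR was found in 15 of 19 called mitosis genes with a window (78.9%), in 8 of 12 that were not called (66.7%) and in 1389 of 9776 tested genes with a window (14.2%). The Cenpe window held 0 CHR matches. CCAAT was found in 73.7%, 75% and 42.8% of these groups. Among 25 DNA replication genes with a window, 4 held CHR (16.0%) and 16 held CCAAT (64.0%). The shares of called and uncalled mitosis genes lay nearer to each other than to that of all genes, which is a description and was not tested. The GLI motif TGGGTGGTC was found in 0 of 5 called Hedgehog genes with a window and in 0.225% of all. A motif this rare could hardly turn up among 5 genes, so the 0 says nothing about them. Shh and Gli1 had no window.

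Epidermal differentiation genes fell. Of 16 tested spinous layer genes 10 fell and 0 rose, with a median of -1.28, against 5.97% of all genes called lower. Krt1, the first keratin of the spinous layer, was measured at 12.47, 13.12, 9.66 and 11.79 in HG and at 14.22, 14.62, 14.43 and 14.78 in total keratinocytes. All HG arrays were lower, with a difference of -2.75 (SE 0.44, limma adjusted p = 0.00787), 6.75-fold. Its partner Krt10 was -1.07 (SE 0.33, adjusted p = 0.0661) and was not called. Grhl3 (-1.79), Sbsn (-1.72), Krt77 (-1.62) and Klf4 (-1.26) also fell. Leaving out Het set 1, cKO set 1, Het set 2 or cKO set 2 gave 6, 9, 10 or 5 falls, and 6 were called without the block.

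Lipid enzymes of the skin barrier gave 13 falls and 0 rises among 23 genes, with a median of -0.86. Acer1, the alkaline ceramidase of epidermis, was at 10.48, 10.57, 8.36 and 9.83 in HG and at 12.24, 12.40, 12.15 and 13.09 in total keratinocytes, a difference of -2.66 (SE 0.32, limma adjusted p = 0.00303) without overlap. Elovl4, which makes very long chain fatty acids, fell by 1.82, Cyp4f39, which hydroxylates them, by 1.81, and Sult2b1, the cholesterol sulfotransferase, by 1.73. Leaving out each pair in turn, in the order above, gave 5, 10, 13 and 6 falls, and 7 were called without the block. Of 18 granular and cornified layer genes only Krt2 (-1.85), Cst6 (-1.84) and Casp14 (-1.50) fell, with 5.97% of all genes called lower as the background, and 15 were not called. Without the pair of cKO set 2 none of these 3 was called. Another Casp14 probe set gave -0.15, with HG higher in Het set 1 (0.51) and cKO set 1 (0.36).

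Proteases, adhesion and upper follicle genes also gave falls, where 5.97% of all genes were called lower. Of 13 kallikreins and serine proteases 6 fell, led by the protease Tmprss4 (-2.64) and the inhibitor Spink5 (-1.68), with 1 left without cKO set 2 and 1 without the block. Of 16 cadherins and desmosome genes 7 fell, with Jup (-1.41), the plakoglobin gene, first, then Dsg1a (-1.29), Pkp3 (-1.29) and Dsc1 (-1.18). Leaving out cKO set 2 gave 2 falls, leaving out Het set 1 gave 3, and 4 were called without the block. Of 13 infundibulum and isthmus genes 8 fell, with a median of -1.03, and Krt79, an upper follicle keratin, was at 12.18, 11.69, 9.78 and 10.77 in HG and at 13.67, 13.38, 13.40 and 13.52 in total keratinocytes (-2.39, SE 0.31). Gata6 (-1.61) was called, and its other probe sets gave -1.14 and 0.13. The infundibulum falls numbered 3, 2, 5 and 3 when Het set 1, cKO set 1, Het set 2 or cKO set 2 was left out, and 2 without the block.

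Of 15 sebaceous genes 5 fell and 1 rose, where 5.97% of all genes were called lower and 5.68% higher. Cidea (-1.89) and Dgat2 (-1.59), lipid droplet and triglyceride genes, fell, and Prdm1, a repressor also found in other follicle cells, rose by 1.34. Among 13 retinoid genes Cyp26b1 (-2.19), Crabp2 (-1.64) and Rdh12 (-1.14) fell and Lrat rose by 1.25. Neither Prdm1 nor Lrat was called when any 1 pair was left out, or without the block. Leaving out cKO set 1 left 2 sebaceous falls, leaving out Het set 2 gave 9, and leaving out cKO set 2 left 0 retinoid falls. Of 16 basal keratinocyte genes Thbs1 (0.73) rose and Cdh1 (-0.93) and Plec (-0.77) fell, with a median of -0.18. None of these basal genes was called without Het set 1, without cKO set 2 or without the block, and Thbs1 was not called when any 1 pair was left out.

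**Figure D4:**
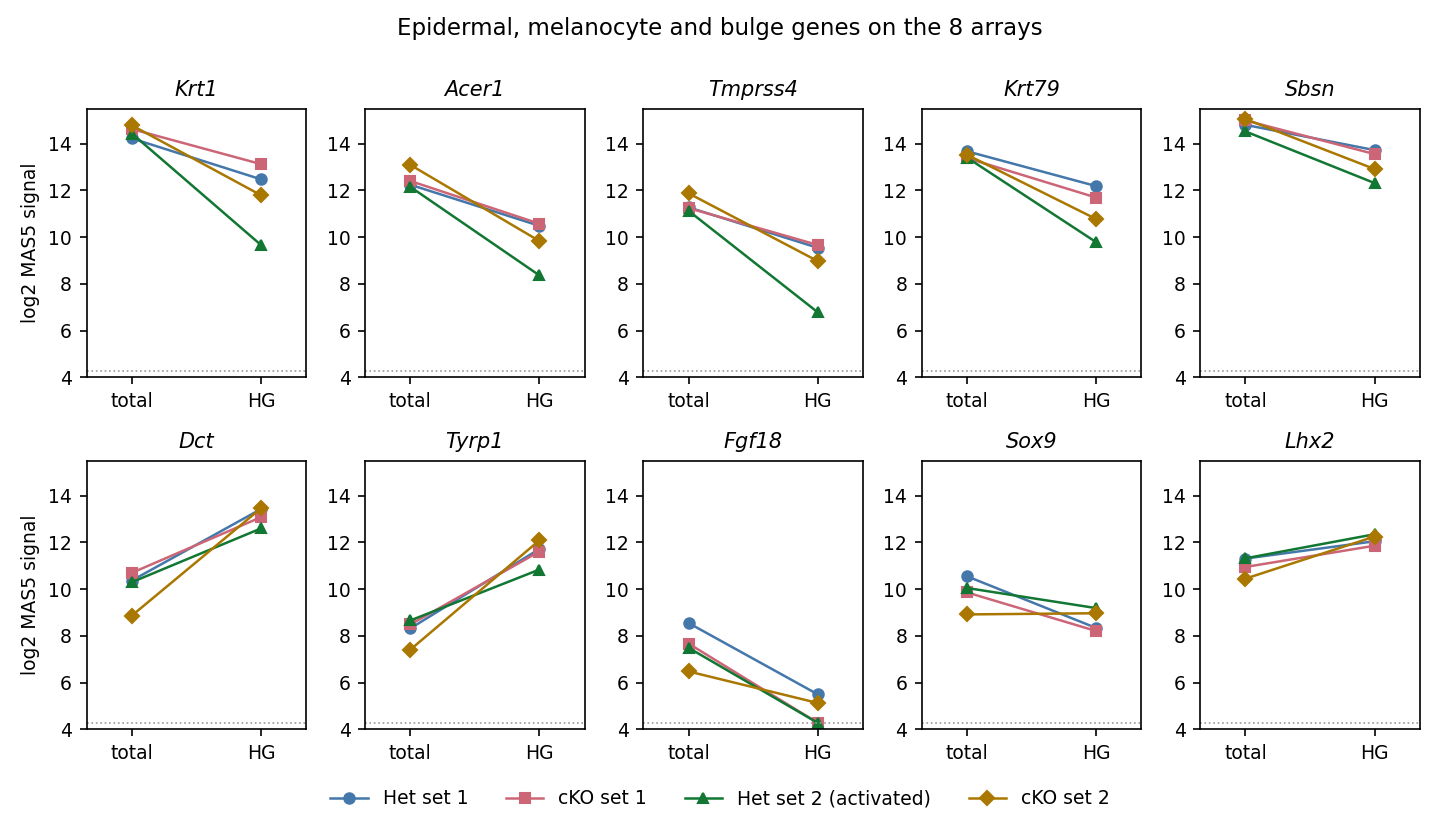
Each panel shows the log2 MAS5 signal of 1 gene in total keratinocytes (left) and HG (right), with 1 line per pair and a dotted line at the floor of 4.28. Krt1, Acer1, Tmprss4, Krt79, Sbsn and Fgf18 fall in all 4 pairs, Dct, Tyrp1 and Lhx2 rise in all 4, and Sox9 falls in 3 pairs and is nearly level in cKO set 2 (8.97 against 8.92).

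The bulge list split. Of 22 tested genes 8 fell and 2 rose, where 5.97% of all genes were called lower and 5.68% higher. The list median was -0.67. Besides Cd34 and Fgf18, Wfdc3 (-1.69), Krt24 (-1.46), Nfatc1 (-1.38), Grem1 (-1.26), Sox9 (-1.17) and Gas1 (-0.74) fell. The fall of Cd34 among these 8 was set by the sort. Sox9, a stem cell transcription factor, was at 8.34, 8.21, 9.19 and 8.97 in HG and at 10.55, 9.86, 10.05 and 8.92 in total keratinocytes, with overlap. The factors Lhx2 (1.12, SE 0.20) and Tbx1 (0.84, SE 0.21) rose instead, and Lhx2 was at 12.05, 11.86, 12.35 and 12.25 in HG and at 11.31, 10.95, 11.32 and 10.45. Krt15 (0.03), the common bulge keratin, did not pass the test. With the pair of Het set 1 left out the falls numbered 2, and without the block 4.

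Hair shaft and matrix genes gave 5 rises and 3 falls among 23, where 5.68% of all genes were called higher and 5.97% lower. The list median was 0.32. Krt35, a shaft keratin, was at 8.33, 7.25, 13.75 and 9.55 in HG and at 5, 5.88, 12.34 and 9.48 in total keratinocytes. The Het set 2 arrays of both fractions were far above the others, and the difference was 1.54 (SE 0.41, limma adjusted p = 0.0411). Krt86 (1.95, with 2 total keratinocyte arrays at the floor), Krt31 (0.97), Krt28 (0.93) and Hoxc13 rose, and Sprr1a (-2.56), Foxn1 and Gata3 fell. The rises numbered 1, 2, 1 and 3 when Het set 1, cKO set 1, Het set 2 or cKO set 2 was left out.

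Melanocyte genes were among the largest rises, where 5.68% of all genes were called higher. Of 11 tested melanocyte markers 10 rose and Mitf (0.54) was not called, and all 11 were higher in HG in all 4 pairs, with a median of 2.09. Dct, a melanin enzyme, was measured at 13.43, 13.08, 12.60 and 13.46 in HG and at 10.37, 10.70, 10.30 and 8.87 in total keratinocytes (3.08, SE 0.33, limma adjusted p = 0.00216). Tyrp1 rose by 3.34, Mlana by 2.70, Pmel by 2.55 and Kit, the receptor of melanocytes, by 1.97. The list mean was 9.67, 9.54, 9.13 and 9.54 in HG and 7.52, 7.61, 7.65 and 6.59 in total keratinocytes, and its summed signal was 12627 to 21998 and 1886 to 4657. Leaving out Het set 1, cKO set 1 or cKO set 2 gave 7 calls, and 8 were called without the block. Pax3 (2.46) and Sox10 (1.62), factors of melanocytes, rose as well. These values go with every rise of a gene that melanocytes also express, and their part in those was not tested.

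Markers of other cells moved less, and 11.7% of all genes were called. Of 12 fibroblast genes Fn1 (1.64) and Fbln1 (0.89) rose and Col1a1 (-1.04), Col3a1 (-0.86) and Col1a2 (-0.80) fell. These falls numbered 0, 1, 3 and 2 when Het set 1, cKO set 1, Het set 2 or cKO set 2 was left out, and 0 without the block. Fbln1 was not called when any 1 pair was left out, and its other probe sets gave 0.33 and 0.93. Of 14 immune markers Cd74 (-0.96) fell, and the list mean on the HG array of Het set 2 was 7.84 against 9.45 to 9.67 on the other HG arrays. Of 4 Schwann cell genes Sox10 rose and Mbp fell (-1.77), while its 7 other probe sets ranged from -2.53 to 0.47, with 4 of them above 0. Of 4 endothelial, 4 muscle and 4 mammary markers 0 were called by limma, with 1, 1 and 0 at an unadjusted p under 0.05. Krt8 (1.65) was called among 3 Merkel cell markers, and with Slc12a2 (-1.27) among 3 sweat gland markers, and Rspo3 alone among 7 dermal papilla markers. Neither Krt8 nor Rspo3 was called without the pair of Het set 1, cKO set 1 or cKO set 2, or without the block. Other Krt8 probe sets gave 1.24 and 1.04, with -0.52 and -0.66 in cKO set 1. Of 15 stress and immediate early genes Jun (-1.47), Jund (-1.34) and Egr2 (-1.26) fell, all 15 had the lower mean in HG and the median was -1.19, or -0.54 without the pair of cKO set 2. Leaving out Het set 1, Het set 2 or cKO set 2 gave 1, 6 or 2 falls. Cdkn1a, Ccn1, Klf4 and Myc fell beside them. The total keratinocyte array of cKO set 2 was the highest of its fraction for Jun, Jund, Cdkn1a, Ccn1 and Myc. It was the lowest for Egr2 (10.78), and its Klf4 (14.87) was near that of Het set 1 (14.80) and cKO set 1 (14.79). Without that pair Jun, Egr2 and Cdkn1a were still called, while Jund, Ccn1, Klf4 and Myc were not. The part of that array in these differences was not tested.

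Grp, Mtmr7, Atp6v1b1 and Scube3, a group known to be high in HG from earlier results on these arrays, all rose, which is not independent evidence. Mtmr7, a phosphoinositide phosphatase, was at 10.31, 9.76, 9.92 and 10.70 in HG and at 7.72, 7.59, 7.79 and 7.32 in total keratinocytes, 5.93-fold. Grp, the gastrin-releasing peptide, rose by 2.27 and Atp6v1b1, a proton pump subunit, by 1.65. Outside the lists, Ptgds (3.10), a prostaglandin D synthase, Myef2 (2.56), the amino acid transporter Slc38a4 (2.50), Sv2b (at least 2.53, with 2 arrays at the floor) and Fam107a (at least 2.58, SE 0.69) were among the largest rises. Fam107a differed by 1.67, 1.14, 1.49 and 6.02 in the 4 pairs and by 1.43 without cKO set 2, and it was not called without Het set 1 or without the block. The largest falls outside them included Tesc (-2.66), Gldc (-2.62), the niacin receptor Hcar2 (-2.58), Npl (-2.52), Ankrd35 (-2.50) and Otop3 (at least 2.56 in size, with 3 HG arrays at the floor).

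Further pathway lists gave 0 to 2 calls each, and 11.7% of all genes were called. Of 13 Notch genes the receptors Notch3 (-1.44) and Notch2 (-0.80) fell, and Notch2 was 0.04 with the mean of its probe sets. Of 9 genes of the insulin-like growth factor axis the binding proteins Igfbp2 (-2.15) and Igfbp4 (-1.12) fell. Igfbp2 was at 7.15, 7.29, 6.77 and 6.96 in HG and at 8.65, 10.05, 8.94 and 9.11 in total keratinocytes, without overlap. Of 10 EGF receptor family genes Erbb3 (-0.69) and Lrig1 (-0.54), a negative regulator of the receptors, fell. Neither was called when Het set 1, cKO set 1 or cKO set 2 was left out, and Lrig1 was not called without Het set 2 either. The neuropilin Nrp2 (1.40) rose among 12 semaphorin genes, the imprinted Peg3 (1.15) among 9 and the detoxifying Gsta2 fell (-2.65) among 21. Other Peg3 probe sets gave 0 to 0.22. Of 8 ectodysplasin pathway genes 0 were called by limma, with 1 at an unadjusted p under 0.05.

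**Figure D5:**
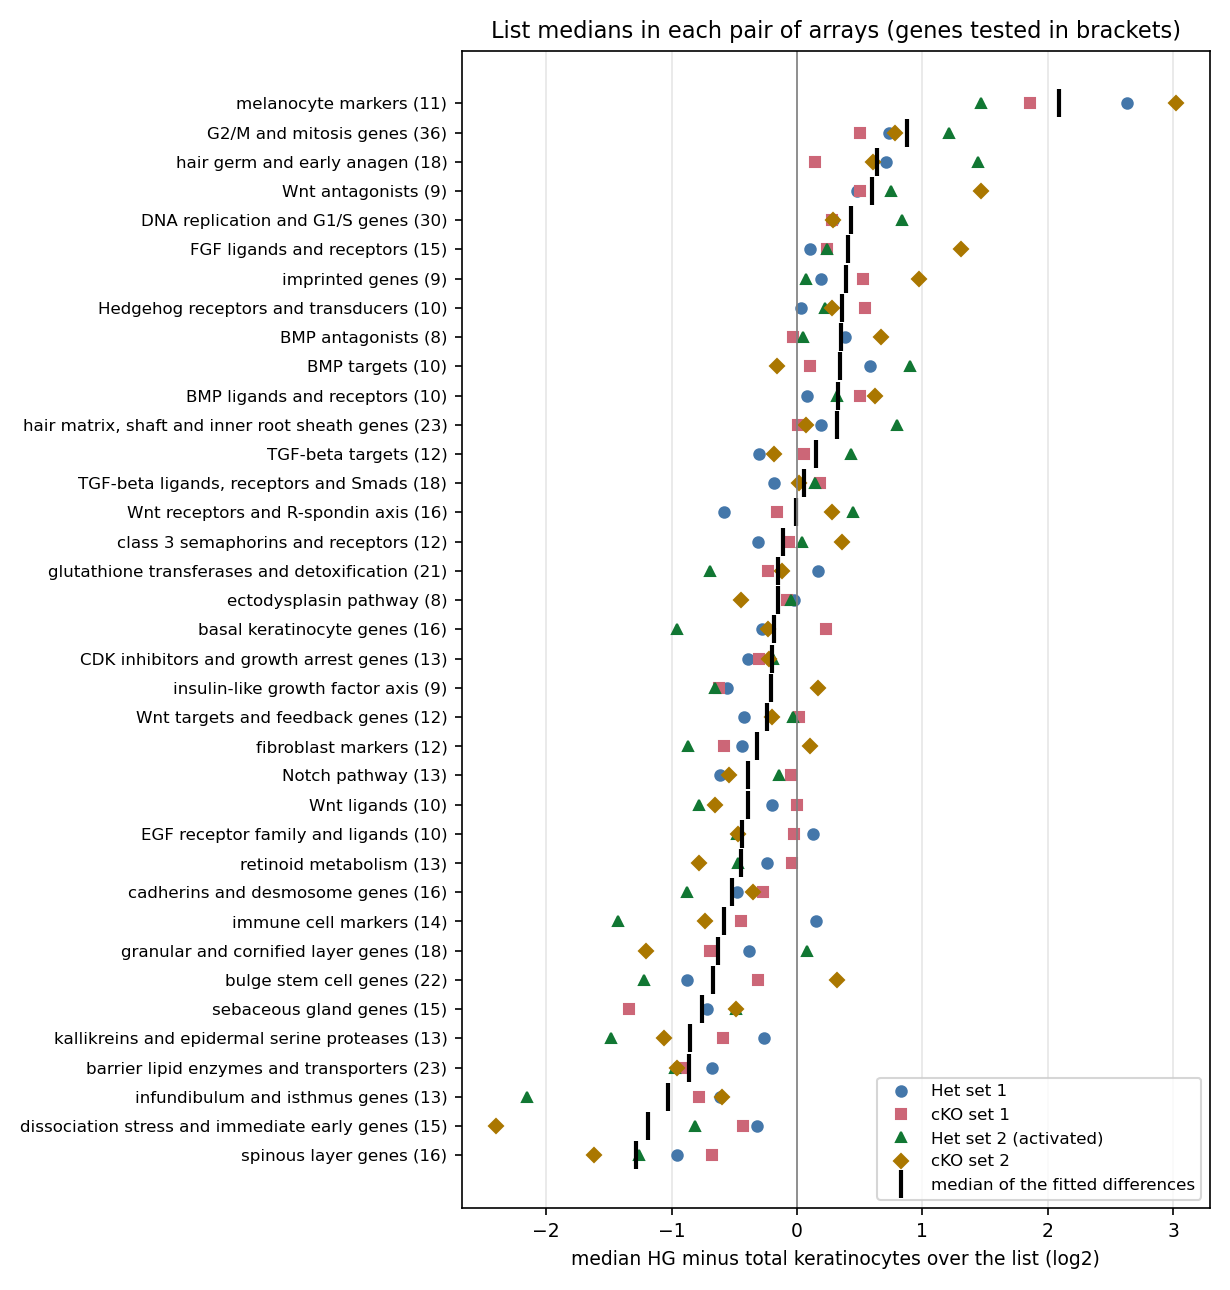
Median HG minus total keratinocyte difference (log2, x axis) of each gene list with at least 8 tested genes, for the 4 pairs (symbols) and for the fitted differences (black bars). Melanocyte (2.09) and mitosis (0.88) lists lie highest and spinous (-1.28) and stress (-1.19) lists lowest, and the stress list of cKO set 2 lies at -2.40.

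Whether the difference depended on genotype, set or activation was asked of fits with 1 (genotype, set) or 2 (activation) residual degrees of freedom, which lean on the spread of all genes. Of the 12122 genes, 0 (0%) depended on genotype by limma, with 707 at an unadjusted p under 0.05 and a smallest adjusted p of 0.542. By set, 7 (0.0577%) were called, 2 higher and 5 lower in set 2, with 890 at an unadjusted p under 0.05. Atf3, a stress-induced factor, was at 10.96, 10.11, 7.94 and 9.79 in HG and at 10.44, 10.32, 9.47 and 14.17 in total keratinocytes, and Fosb at 10.63, 9.27, 6.42 and 8.68 and at 9.89, 9.84, 8.13 and 12.51. Both were highest on the total keratinocyte array of cKO set 2, the array that stood apart in stress genes. The count was 0 with the set term alone or with a stricter filter, and no pair could be left out.

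The pair of Het set 2, labelled activated, differed from the other 3 pairs in 117 genes (0.965%), 4 higher and 113 lower, with 1449 at an unadjusted p under 0.05. This sets 1 pair against 3, so activation and anything else particular to that pair cannot be told apart. Ccl20, a chemokine, was at 7.86, 7.66, 4.28 and 8.08 in HG, at the floor in Het set 2, and at 7.03, 7.99, 8.07 and 7.20 in total keratinocytes, and Apol7a was at the floor on the same array. Egr3, an immediate early factor, was at 9.10, 9.42, 12.67 and 9.80 in HG and at 10.66, 10.86, 11.41 and 10.75 in total keratinocytes, a dependence of 2.57. Another Egr3 probe set gave pair differences of 1.47, 2.95, -0.31 and 0.46, lowest in Het set 2. Its mean was 1.14 against -0.68. The count of 117 was 0 with the floor at the pooled median, without a filter, with the mean of all probe sets or without a variance trend.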

How the data were processed

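Per the labels, cRNA from sorted cells was hybridised to Affymetrix arrays, and the deposited values are MAS5 signal intensity on a linear scale, 1 column per array. The submitters' processing notes name MAS5 with no version. With 2% of probe sets trimmed at both ends, each array's mean was 499.8 in the deposited intensity values. Medians were 63.9 to 98.8. No normalization was added.

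Of 45101 probe sets 64 controls were left out, and 34945 of the rest had 1 gene symbol, 932 several and 9160 none; 34741 were found by gene ID. The brightest probe set with 1 symbol stood for a gene (18193 genes). Signals under the pooled 25th percentile of the 8 arrays (19.4) were set to it before log2, and 12122 genes above the pooled median (80.4) on at least 2 arrays were tested with limma 3.58.1 in R 4.3.3 (eBayes with trend, two-sided, Benjamini-Hochberg). The number of arrays limits the precision. The fit held the 4 pairs as a block, by genotype and set number. Deviations from the fraction means correlated at 0.28, 0.37, 0.59 and -0.01 within the pairs of Het set 1, cKO set 1, Het set 2 and cKO set 2, against at most 0.19, 0.31, 0.04 and 0.09 with an array of another pair, so the numbers alone do not show that the last pair shares a source. Genotype and set terms came from the same fit and the activation term from another, both separate from the fit above.

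The members and the 49 gene lists were chosen with earlier results of these data known. Genes named were the markers, the 12 largest called changes in each direction with 1 sign in all pairs, up to 4 largest called members of each list and 3 per direction of each interaction. Sox9, Nfatc1, Lhx2, Tbx1, Fgfr1, Krt31, Krt28, Klf4, Trps1, Kit, Top2a, Cdk1, Mcm7, Krt10, Tmeff1, Id1, Id2 and Id3 were added as further list members after their values were seen, as were members named only with their difference and the genes chosen for the plots. Of 690 list genes 534 were tested, and the others were not analysed here or were too dim, the erythroid list entirely. Alternatives covered normalization, floor, filter, probe set choice, moderation, block and each pair left out.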

Additional observations from a re-analysis of the deposited data

Results flagged for a closer look

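Of 302 groups of 4 arrays (each named gene in each fraction), 23 held 1 array far from the other 3 by Dixon's test. Chance alone gives about 1 in 20 where groups are independent. Here the groups share arrays, and some genes were named because the activated pair differed, so that share is no benchmark. The HG array of Het set 2, labelled activated, stood high for Shh (12.49), Lef1 (12.14), Gli1 (9.94), Ccne2 (10.94), Cenpe (9.58), Top2a (13.05) and Adh6b (9.13), and low for Rdh12 (8.46) and Ccl20 (4.28, the floor). The total keratinocyte array of the same pair stood high for Fen1 (11.11) and Tmeff1 (7.86) and low for Elovl4 (11.46), Dgat2 (9.78), Nectin4 (8.07) and Klf4 (14.28). Of the cKO set 2 arrays, HG was low for Grhl3 (7.74), and total keratinocytes were high for Pkp3 (12.62) and low for Fbln1 (8.44) and Kit (6.25). Of the Het set 1 arrays, total keratinocytes were high for Sv2b (5.82) and Dsc1 (12.41) and low for Ctla2b (7.99), and HG was high for Otop3 (5.09), whose other 3 HG arrays were at the floor.

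The HG minus total keratinocyte difference changed between sets, by limma, for Atf3 (-3.10), Fosb (-2.86), Epgn (-2.72), Ccn1 (-2.11), Npl (-2.07), Runx1 (2.60) and Pdap1 (2.42), as set 2 minus set 1. It differed between the activated pair and the mean of the other 3 for Ccl20 (-4.25), Apol7a (-3.78), Ctla2b (-3.44), Cst6 (-2.87), Adh6b (3.45), Nectin4 (3.26) and Egr3 (2.57). Other probe sets of the last 2 genes did not repeat this. In the order of pairs used above, that of Nectin4 gave -1.25, -0.90, -0.76 and -2.10, and that of Egr3 1.47, 2.95, -0.31 and 0.46.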

How the results depend on the processing

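Of the 134 called named genes 0 kept their call in every setting run, and 42 kept it in all settings but the 2 with no filter. All 134 kept their sign when any 1 pair was left out, which was fixed in advance for those with 1 sign in all 4 pairs. Of 48 list medians 29 stayed within the spread between pairs. The count of 1413 (689 higher, 724 lower) became 632 (370, 262) without a variance trend, which moved the higher share of calls from 48.8% to 58.5%, 738 (356, 382) at 2-fold or more, 544 (273, 271) without the replicate block, and 0 without a filter, where 3621 genes had an unadjusted p under 0.05 and 688 lay at the floor on all 8 arrays. Without those 688, an alternative added after the values were seen, it was 510 (257, 253). Leaving out 1 pair gave 369 to 1564 calls, 161 to 826 higher and 200 to 738 lower. The set count of 7 (2, 5) became 20 (5, 15) with quantile normalization, 4 (1, 3) without a floor, 2 (0, 2) with the mean of probe sets, 47 (12, 35) in the added alternative, and 0 without a filter, with the 75th percentile filter, without a trend or with the set term alone. The count of 117 for the activated pair became 0 with the floor at the median, without a filter, in the added alternative, with the mean of probe sets or without a trend. Genotype counts were 0 in every setting run. List medians turned sign without a filter and in the added alternative for Wnt ligands (0.13), Notch (0.03) and retinoid genes (0), and with the 75th percentile filter for BMP antagonists (-0.09) and sweat gland markers (-1.27). Leaving out 1 pair turned the medians of the insulin-like growth factor axis (0.09 without Het set 1), BMP targets (-0.06 without Het set 2), TGF-beta targets (-0.05 without cKO set 2), TGF-beta ligands, receptors and Smads (-0.06 without cKO set 1, -0.01 without Het set 2), Wnt receptors (0.18 without Het set 1, 0.04 without cKO set 1) and muscle markers (-0.07 without Het set 2, -0.34 without cKO set 2). Notch2 (0.04) and Egr3 (0.23) turned with the mean of probe sets. Leaving out 1 pair turned the sign of Epgn (-0.82 to 0.16), Ccl20 (-1.10 to 0.46), Apol7a (-1.28 to 0.15), Ctla2b (-0.81 to 0.49) and Id1 (-0.39 to 0.20). Het set 2 was the pair whose absence turned Ccl20, Apol7a and Ctla2b, it and cKO set 2 turned Epgn, and either cKO pair turned Id1. The cause of these changes was not tested. Genes near the floor have differences that are bounds, and 4 pairs limit what small changes can be called.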
